A study of Mus musculus with 6 samples.

Results

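The genes described here encode RANKL, its signalling receptor RANK and its soluble decoy receptor osteoprotegerin. They are Tnfsf11, Tnfrsf11a and Tnfrsf11b, and each was found by its name on 1 locus of the deposited tables, so there were 3 members among 36812 named loci. Messenger RNA had been sequenced from mouse embryonic fibroblasts (primary connective-tissue cells cultured from embryos) with a C57BL/6 background. There were 3 libraries of genotype STC1+/+ (WT, called wild-type here) and 3 of genotype STC1-/- (KO, called knockout), all unstimulated as far as the labels say. Whether each library stands for its own embryo or culture is not labelled, so any p-value measures only the spread between these libraries. The sources used here do not name the allele beyond its genotype. Tnfsf11 was selected on its fold change and DESeq2 adjusted p in these same libraries, which placed it higher in knockout cells, and the other members because they are its receptors. The difference between the genotypes is therefore given for all 3 as a description, with no test.

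RANKL is a membrane-bound or shed cytokine of the tumour necrosis factor family that stromal cells, osteoblasts, osteocytes and activated T cells make. It binds RANK on precursors of the monocyte and macrophage lineage and, together with the growth factor CSF1, turns them into bone-resorbing osteoclasts. Osteoprotegerin is secreted by the same stromal cells, binds RANKL and keeps it from RANK, so the balance of ligand and decoy is widely used as a readout of how strongly a stroma favours osteoclast formation.

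Libraries held between 21882092 (knockout replicate 1) and 71488701 (wild-type replicate 1) estimated fragments. Stc1, the targeted gene, had 2245, 291 and 368 fragments in wild-type replicates 1 to 3 and 6, 0 and 0 in knockout replicates 1 to 3. Fibroblast markers were present in every library, with 0 of 12 at a count of 0, but macrophage markers were present too and differed between libraries. The 14 macrophage markers with a locus of their own summed to 26.9, 1119 and 10211 CPM (counts scaled to a common effective library size) in wild-type replicates 1 to 3 and to 977, 98.96 and 140 CPM in knockout replicates 1 to 3. Libraries of both genotypes were thus rich or poor in them.

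The members lie on different chromosomes. In the files' mm10 coordinates Tnfsf11 (XLOC_011186) runs from 78277445 to 78308043 on the minus strand of chromosome 14, Tnfrsf11a (XLOC_000548) from 105780723 to 105848083 on the plus strand of chromosome 1, and Tnfrsf11b (XLOC_012076) from 54250619 to 54279008 on the minus strand of chromosome 15. The annotation lists all as protein-coding, with 5, 10 and 5 exons and proteins of 316, 625 and 401 amino acids. No other named locus that was kept overlapped any of them. Overlap with loci that have no gene name or were flagged as too deep was not checked. The 250 bases before the start of the ligand gene and of the receptor gene are shown because the ligand separated the libraries by genotype while the receptor was nearly flat in all but 1. The sequences are those of RefSeq (GRCm38.p6, the assembly of mm10), from chr14:78308044-78308293 on the minus strand and chr1:105780473-105780722 on the plus strand. Capitals mark matches, on either strand, to TATAA (the TATA element), CCAAT (bound by the factor NF-Y) and GGGCGG (bound by factors of the SP family).
Tnfsf11: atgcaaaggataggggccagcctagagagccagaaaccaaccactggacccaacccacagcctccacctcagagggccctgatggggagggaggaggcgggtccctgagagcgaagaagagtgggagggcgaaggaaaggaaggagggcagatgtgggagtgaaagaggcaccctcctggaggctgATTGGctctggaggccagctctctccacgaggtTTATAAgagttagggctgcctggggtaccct
Tnfrsf11a: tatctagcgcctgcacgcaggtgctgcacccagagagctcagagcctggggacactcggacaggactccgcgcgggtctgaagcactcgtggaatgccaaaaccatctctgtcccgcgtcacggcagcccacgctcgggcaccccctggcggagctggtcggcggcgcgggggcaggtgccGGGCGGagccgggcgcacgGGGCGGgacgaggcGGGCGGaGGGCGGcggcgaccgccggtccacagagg
The window before Tnfsf11 holds a TATAA match on each strand, overlapping at 31 and 30 bases before the start, and a CCAAT match on the other strand at 64 bases, with 4 CG pairs and 60.4% G and C. The window before Tnfrsf11a holds 4 GGGCGG matches, the farthest at 69 bases and the nearest at 29 bases, no TATAA or CCAAT match, 31 CG pairs and 73.6% G and C. Over 32851 such windows the medians were 6 CG pairs and 52.4% G and C, and TATAA was found in 22.8% of them, CCAAT in 33.8% and GGGCGG in 32.7%. Of the other motifs searched on both strands, CANNTG (E-box, in 66.2% of windows) matched at 1 place before Tnfsf11 and 2 before Tnfrsf11a, and TGACG (cyclic AMP response half-site, 17.8%) matched 1 time before Tnfrsf11a. TGANTCA (AP-1 site, 6.75%), TTCNNNGAA (STAT site, 7.02%) and ACCACA (RUNX core, 14.0%) matched in neither window.

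Tnfsf11, the ligand, was several times more abundant in knockout fibroblasts. It had 218, 375 and 353 fragments in wild-type replicates 1 to 3, or 1.12, 3.33 and 2.79 FPKM (fragments per kilobase of transcript, scaled by the authors for the depth of the library). Knockout replicates 1 to 3 had 714, 786 and 1412 fragments, or 12.6, 8.05 and 12.1 FPKM, although all 3 held fewer fragments in all than wild-type replicate 3. Every knockout library lay above every wild-type library, and the lowest knockout FPKM was 2.41 times the highest wild-type FPKM. The means were 10.9 ± 2.51 FPKM in knockout and 2.41 ± 1.15 FPKM in wild-type cells (SD, n = 3 each). Their ratio was 4.53. The fit to the counts gave a log2 fold change of 2.16 ± 0.44 (SE), and 0.549% of the genes tested had a higher one. The authors' deposited table gives mean levels of 2.41 and 10.9 FPKM and a log2 fold change of 2.18 for Tnfsf11.

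**Figure D1:**
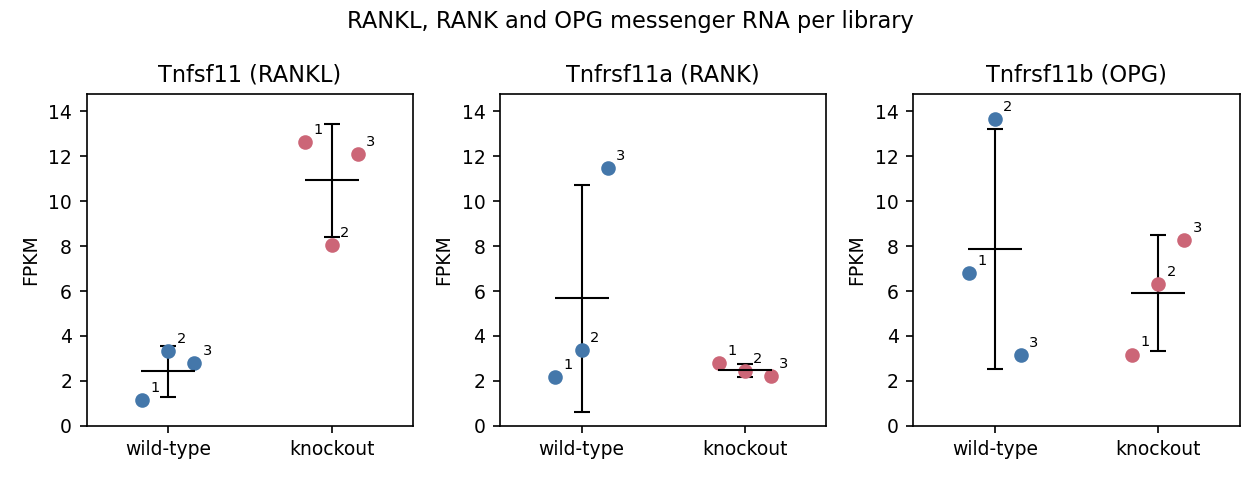
FPKM of Tnfsf11, Tnfrsf11a and Tnfrsf11b in each library, with the number of the replicate beside each point; the long bar is the mean and the whiskers are 1 SD (n = 3 each). Only Tnfsf11 has groups that do not overlap (1.12 to 3.33 against 8.05 to 12.6 FPKM); wild-type replicate 3 stands apart for Tnfrsf11a at 11.5 FPKM.

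With 1 library left out in turn the log2 fold change of Tnfsf11 ran from 1.84 (without wild-type replicate 1, the lowest library) to 2.48 (without wild-type replicate 2). Without the 3 libraries with the most macrophage markers, a choice made after seeing the data that leaves wild-type replicate 1 as the only wild-type library, it was 3.08 ± 0.37 (SE), the lone library being assumed to vary like the knockout ones. The part of macrophage content in the ligand level was not tested. The 12 fibroblast markers summed to 7193, 12881 and 7698 CPM in wild-type and 5337, 6613 and 5851 CPM in knockout replicates 1 to 3, without overlap. Their mean log2 CPM, in which each marker counts alike, did overlap, at 7.53, 8.43 and 7.97 in wild-type and 7.05, 7.74 and 7.43 in knockout replicates 1 to 3. Of the 12, 4 had positive and 8 negative log2 fold changes, where 44.4% of all genes tested were positive. The genotypes did not overlap for 2 of them, which were lower in every knockout library. Over all genes tested, 5.44% were lower in this way and 10.6% did not overlap in either direction. The median of the fibroblast markers, -0.70, became -0.0092 without the same 3 libraries. The T and B cell markers with a locus of their own, 13 in number, summed to 5.32, 5.36 and 38.3 CPM in wild-type and 11.9, 6.03 and 6.61 CPM in knockout replicates 1 to 3, highest in wild-type replicate 3. Between 4 and 8 of the 13 were at 0 in a library. Cd28, a costimulatory receptor of T cells, made up most of the sum (3.27 to 36.3 CPM), while Cd3d, a subunit of the T cell receptor complex, was at 0 in all 6. The part of fibroblast or T cell content in the ligand level was not tested.

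Tnfrsf11b, the decoy, spread more within each genotype than between them. Its level was 6.78, 13.7 and 3.15 FPKM in wild-type replicates 1 to 3 (1630, 1896 and 492 fragments). Knockout replicates 1 to 3 had 3.17, 6.32 and 8.25 FPKM (220, 764 and 1201 fragments). The genotypes overlapped, with wild-type replicate 2 highest and wild-type replicate 3 and knockout replicate 1 lowest and nearly equal. The means were 5.91 ± 2.57 FPKM in knockout and 7.87 ± 5.34 FPKM in wild-type cells (SD, n = 3 each). The fitted log2 fold change of -0.43 ± 0.60 (SE) turned to 0.22 without wild-type replicate 2, so the data fix no direction for the decoy. The authors' deposited table gives -0.41 for Tnfrsf11b.

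The ratio of ligand to decoy messenger RNA, taken per length from FPKM, separated the genotypes and crossed 1 between them. Its numerator, Tnfsf11, was selected on this contrast, so a lean towards higher knockout ratios was built in and the values are a description. Tnfsf11 stood at 0.165, 0.244 and 0.884 times Tnfrsf11b in wild-type replicates 1 to 3. In knockout replicates 1 to 3 it stood at 3.99, 1.27 and 1.47 times Tnfrsf11b. The decoy was thus the more abundant message in every wild-type library and the ligand in every knockout library, although knockout replicate 2 and wild-type replicate 3 were only 1.44-fold apart. The mean log2 ratio was 0.97 ± 0.90 in knockout and -1.60 ± 1.27 in wild-type cells (SD, n = 3 each). The difference of 2.57 on the log2 scale, or 5.94-fold, ran from 2.05 without knockout replicate 1 to 3.28 without wild-type replicate 3. The ligand moved more than the decoy, with log2 fold changes of 2.16 and -0.43. Wild-type replicate 3 and knockout replicate 1 had the highest ratio of their genotype and the lowest decoy level, which is partly arithmetic because the decoy is the denominator.

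**Figure D2:**
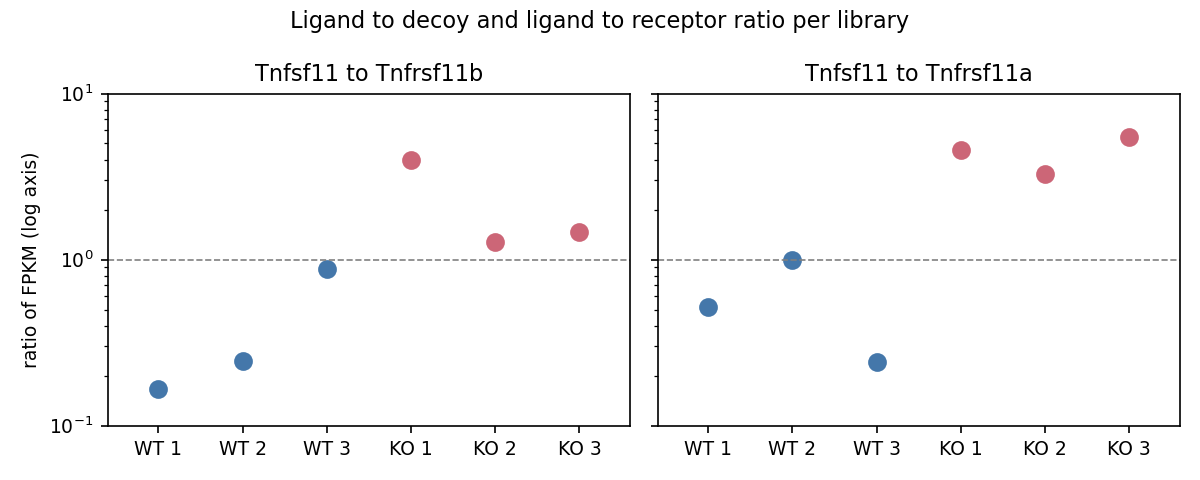
Ratio of Tnfsf11 FPKM to Tnfrsf11b FPKM (left) and to Tnfrsf11a FPKM (right) in each library, on a log axis with a dashed line at 1. All 3 knockout libraries lie above 1 in both panels (lowest 1.27 and 3.30) and all 3 wild-type libraries below it (highest 0.884 and 0.990). Tnfsf11, the numerator of both, was selected on this contrast.

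Tnfrsf11a, the receptor, was low and even in 5 of the 6 libraries. Wild-type replicates 1 to 3 had 2.16, 3.37 and 11.5 FPKM (796, 691 and 2887 fragments). Knockout replicates 1 to 3 had 2.78, 2.44 and 2.20 FPKM (264, 424 and 441 fragments). Only wild-type replicate 3 was high, and apart from it the genotypes overlapped. The fitted log2 fold change, -1.38 ± 0.65 (SE), was -0.30 without wild-type replicate 3, so the lower knockout mean rests on that library. The ratio of ligand to receptor FPKM was 0.520, 0.990 and 0.243 in wild-type and 4.56, 3.30 and 5.50 in knockout replicates 1 to 3.

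Wild-type replicate 3 was also the library with the most macrophage markers. Adgre1, listed by its older symbol Emr1, encodes the macrophage surface protein F4/80 and stood there at 972 CPM against 1.60 to 168 CPM in the other 5 libraries. The leukocyte gene Ptprc stood at 285 CPM against 0.637 to 43.6 CPM, and C1qa, a complement gene of resident macrophages, at 809.7 CPM against 0.188 to 90.5 CPM. Csf1r, the receptor for CSF1 on osteoclast precursors, stood at 1266 CPM there, at 153 CPM in wild-type replicate 2, at 81.3 CPM in knockout replicate 1 and at 5.28 to 7.74 CPM in the other 3. Wild-type replicate 1, with 26.9 CPM of summed markers, had 11.3 CPM of Tnfrsf11a, against 16.2 CPM in wild-type replicate 2 with 1119 CPM and 59.7 CPM in wild-type replicate 3 with 10211 CPM. Knockout replicates 1 to 3, with 977, 98.96 and 140 CPM of summed markers, had 12.4, 11.4 and 9.78 CPM of Tnfrsf11a. The part of macrophages in the receptor level was not tested. In bulk RNA such as this, fewer cells of a type and less RNA per cell cannot be told apart.

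**Figure D3:**
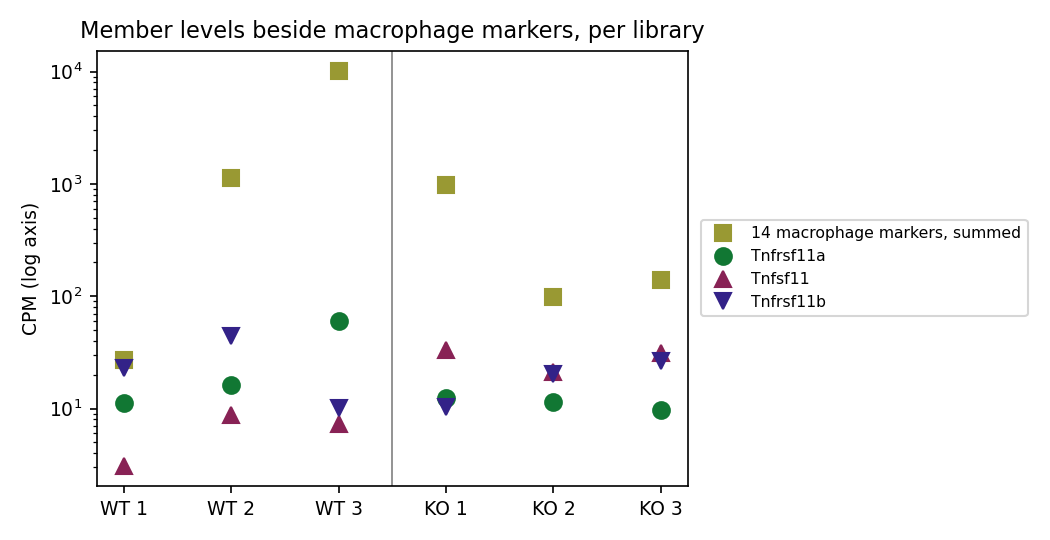
CPM on a log axis in each library for the 3 members and for the sum of 14 macrophage markers. The marker sum runs from 26.9 to 10211 CPM; Wild-type replicate 3 has the highest sum and the highest Tnfrsf11a (59.7 CPM), and knockout replicate 1 the highest Tnfsf11 (33.5 CPM).

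Compared per length among 17 ligand loci of the TNF family, Tnfsf11 ranked 3, 3 and 4 by FPKM in wild-type and 2, 3 and 2 in knockout replicates 1 to 3, so its ranks overlapped between the genotypes. The locus shared by Tnfsf12 and Tnfsf13, which encode TWEAK and APRIL and cannot be told apart here, was highest in both (26.5 and 19.6 FPKM). Tnfsf9, the ligand of the T cell costimulator 4-1BB, had 6.11 FPKM in wild-type and 9.51 FPKM in knockout cells. Among 28 receptor loci Tnfrsf11a ranked 18, 13 and 8 in wild-type and 18, 18 and 17 in knockout replicates 1 to 3, its highest place being in wild-type replicate 3. Tnfrsf11b ranked 14, 7 and 19 against 16, 14 and 12, overlapping. Tnfrsf1a, the broadly expressed TNF receptor, ranked 3 in every library, with means of 72.6 and 75.8 FPKM. Above it stood only the locus shared by Thoc6 and Tnfrsf12a and the locus shared by Sdf4 and Tnfrsf4. The genes on each cannot be told apart here, so the receptor ranks count these loci whole. Among all 15673 tested loci, Tnfsf11 exceeded 24.6% to 36.7% by FPKM in wild-type and 53.4% to 63.6% in knockout libraries.

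All 3 members passed the filter on low counts. DESeq2 called 1 of them, Tnfsf11, where it called 0.33% of all genes (61 of 18465, 0.157% higher and 0.173% lower in knockout cells), and edgeR's quasi-likelihood test called 0 of 3, where it called 0% (0 of 15673, with 607 at an unadjusted p under 0.05). Tnfsf11 was the 1 member with every knockout library above every wild-type library, as were 5.18% of the genes tested, and 0 of 3 had every knockout library below, as did 5.44% (10.6% of genes in either direction). As the members were chosen with this contrast known, nothing is read from these counts.

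Genes around the members were read from 14 lists on the biology of the pathway and on cell types, all taken from the same fit. At an adjusted p under 0.05, edgeR called 0 genes of any list, and 13 lists also had 0 calls by DESeq2. The values below are therefore levels, not calls. Over all genes tested the median log2 fold change was -0.05, and 44.4% were positive.

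Downstream of RANK, the 28 genes of its signalling pathway had a median log2 fold change of 0.06, with 16 positive and 12 negative. edgeR called 0 higher and 0 lower (0 of 28 also at an unadjusted p under 0.05, against 3.87% of all genes), and DESeq2 called 0. Traf6, the adaptor that RANK uses to reach NF-kB, stood at 33.4 to 48.2 CPM in wild-type and 35.3 to 49.9 CPM in knockout libraries. Nfatc1, the transcription factor that drives osteoclast differentiation, stood at 21.2, 40.6 and 56.5 CPM in wild-type and 26.6, 19.5 and 18.5 CPM in knockout replicates 1 to 3, overlapping. Groups did not overlap for 5 of the 28 genes that were higher in knockout cells and 2 that were lower, where 5.18% and 5.44% of all genes tested, or 10.6% in either direction, did not overlap. The 5 were Src, the NF-kB subunit gene Relb (20.4 to 43.6 CPM in wild-type against 45.5 to 56.5 CPM in knockout libraries), the NF-kB inhibitor gene Nfkbia (27.1 to 83.7 against 97.6 to 153 CPM), Tnfaip3, which encodes the NF-kB brake A20 (10.3 to 85.35 against 85.41 to 153 CPM), and the adaptor gene Sqstm1 (494 to 866 against 896 to 1115 CPM). Src, a kinase osteoclasts need to resorb bone, stood at 76.4 to 135 CPM in wild-type and 144 to 155 CPM in knockout libraries. Lower were Tab2, which links TRAF6 to the kinase TAK1 (148 to 209 against 131 to 148 CPM, a gap of under 1 CPM between the groups), and the locus shared by Map3k14, the kinase NIK, and 1700028N14Rik (15.0 to 31.1 against 9.72 to 14.5 CPM).

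The list of other binding partners and of proteases that can shed RANKL had 8 of 10 genes tested, with a median of -0.19 and 0 calls by edgeR or DESeq2 (2 at an unadjusted p under 0.05 in edgeR, against 3.87% of all genes). The genotypes did not overlap for 3 that were higher in knockout cells (Mmp3, Sdc1 and Tnfrsf10b) and 1 that was lower (Lgr4). Over all genes tested, 5.18% were higher and 5.44% lower in this way. Lgr4, another receptor for RANKL that competes with RANK, stood at 28.9, 53.2 and 27.3 CPM in wild-type and 21.2, 22.0 and 23.3 CPM in knockout replicates 1 to 3, without overlap. Tnfsf10, which encodes TRAIL, the other ligand of osteoprotegerin, was nearly absent, at 0.094 to 0.559 CPM in all libraries, and did not pass the filter. Tnfrsf10b, the mouse death receptor for TRAIL, stood at 43.3 to 82.9 CPM in wild-type and 109 to 118 CPM in knockout libraries. The metalloproteinase gene Mmp3 stood at 549.6, 21.2 and 438 CPM against 1614, 1484 and 1176 CPM, and Sdc1, a heparan sulphate proteoglycan that binds osteoprotegerin, at 196 to 239 against 244 to 298 CPM.

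Inducers of Tnfsf11 and their receptors had 27 of 29 genes tested, 15 positive and 12 negative with a median of 0.02, and 0 calls by either tool (4 at an unadjusted p under 0.05 in edgeR, against 3.87% of all genes). The genotypes did not overlap for 3 that were higher in knockout cells, among them Lif and Ptger2, and 3 that were lower (Il6ra, Il17ra and Pth1r). Over all genes tested, 5.18% were higher and 5.44% lower in this way. Among the cytokines that raise RANKL through gp130, Lif stood at 141, 18.2 and 21.7 CPM in wild-type and 427, 276 and 297 CPM in knockout replicates 1 to 3. Il6 stood at 46.9, 1.17 and 8.92 against 272, 88.1 and 43.5 CPM, and Il11 at 3.74, 9.04 and 2.98 against 40.7, 7.13 and 4.30 CPM, both overlapping. Osm, another of these cytokines, stood at 0.042, 1.57 and 16.1 against 10.4, 0.241 and 0.089 CPM, overlapping. Il6st, which encodes gp130, stood at 197, 593 and 342 against 192, 214 and 246 CPM, overlapping. Il6ra stood at 19.6, 22.6 and 60.6 against 19.0, 17.3 and 16.7 CPM, without overlap. The receptor genes Lifr, Osmr and Il11ra1 overlapped, with log2 fold changes of -0.18, 0.25 and 0.01. In the prostaglandin E2 branch, Ptgs2, the inducible cyclooxygenase, stood at 1195, 297 and 313 against 3218, 2215 and 1008 CPM, overlapping because wild-type replicate 1 was high. The prostaglandin receptor gene Ptger2 stood at 2.65 CPM or less against 3.11 to 6.54 CPM. The vitamin D receptor gene Vdr stood at 9.29 to 21.6 CPM in wild-type and 4.28 to 12.1 CPM in knockout libraries, and its target Cyp24a1 was at most 0.141 CPM. Il17ra, the interleukin-17 receptor subunit, stood at 32.2 to 84.7 against 24.6 to 31.1 CPM. Pth1r, another receptor gene of the list, stood at 7.09, 12.3 and 5.84 against 4.46, 5.82 and 5.79 CPM.

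**Figure D4:**
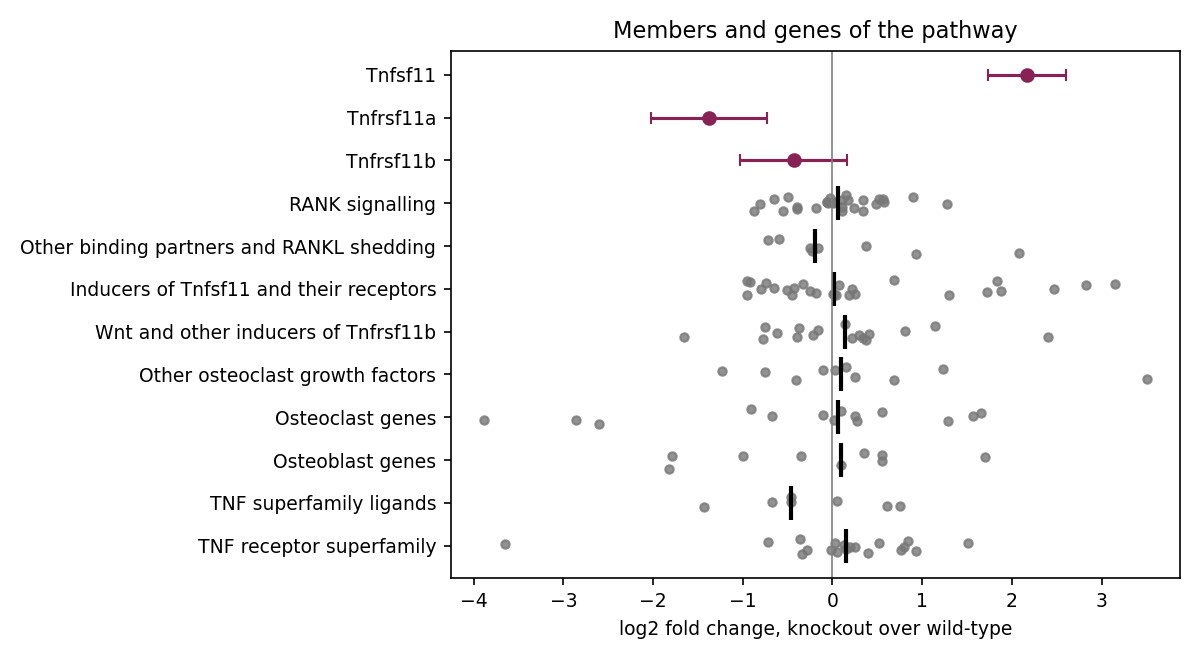
Knockout against wild-type log2 fold change for the 3 members (points with 1 standard error) and for each tested gene of 9 lists (grey points, 1 per locus, moved up or down at random for legibility; the black bar is the list median). The list medians lie between -0.46 and 0.16, and single genes of the lists reach 3.50 (Csf2), above Tnfsf11 at 2.16, which was selected on this contrast.

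Genes that can raise the decoy, mostly of the Wnt pathway, had 17 of 20 tested, 9 positive and 8 negative with a median of 0.13 and 0 calls by either tool (1 at an unadjusted p under 0.05 in edgeR, against 3.87% of all genes). Bmp2, a bone morphogenetic protein, stood at 7.23, 0.703 and 4.82 CPM in wild-type and 20.7, 15.9 and 31.2 CPM in knockout replicates 1 to 3. The Wnt receptor gene Fzd8 stood at 9.15 to 19.2 against 8.29 to 10.1 CPM, and the Wnt coreceptor gene Lrp6 at 136 ± 34.4 against 103 ± 4.92 CPM (SD, n = 3 each), both overlapping. The Wnt target gene Axin2 stood at 1.64 to 4.12 against 1.83 to 5.19 CPM.

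The other growth factors for osteoclasts numbered 10, all tested, with a median of 0.09 and 0 calls by either tool (0 at an unadjusted p under 0.05 in edgeR, against 3.87% of all genes). Csf1, the partner of RANKL, was abundant in every library, at 1659, 973 and 869.7 CPM in wild-type and 1686, 1494 and 979 CPM in knockout replicates 1 to 3, overlapping. Csf2, a cytokine of myeloid growth, stood at 1.03, 0.023 and 0.021 against 8.55, 2.90 and 1.31 CPM.

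Genes of the osteoclast list had 14 of 17 tested, with a median of 0.06 and 0 calls by either tool (2 at an unadjusted p under 0.05 in edgeR, against 3.87% of all genes). The list includes Csf1r, given above beside the macrophage markers, so its levels are not a measure of osteoclasts alone. The 16 with a locus of their own summed to 636, 656 and 3852 CPM in wild-type and 1453, 827 and 605 CPM in knockout replicates 1 to 3, highest in wild-type replicate 3 and knockout replicate 1. Levels differed widely within the list. The calcitonin receptor gene Calcr was at most 0.141 CPM and the fusion genes Ocstamp and Dcstamp at most 0.423 and 1.55 CPM. Atp6v0d2, a proton pump subunit needed for osteoclast fusion, stood at 0.396, 2.86 and 159 CPM in wild-type and 74.5, 6.01 and 6.50 CPM in knockout replicates 1 to 3. Itgb3, the beta 3 integrin of osteoclasts and other cells, stood at 38.6 to 81.5 against 36.7 to 108 CPM. Acp5, the acid phosphatase TRAP, stood at 2.01, 2.98 and 31.2 CPM in wild-type and 78.9, 8.10 and 1.18 CPM in knockout replicates 1 to 3, highest in knockout replicate 1. Ctsk, the collagen-cutting protease of osteoclasts, which fibroblasts also make, stood at 89.0 to 200.4 against 95.3 to 250.4 CPM. Mmp9 stood at 26.3, 11.1 and 37.6 against 122.0, 65.9 and 49.4 CPM, and Car2, carbonic anhydrase 2, at 0.600 to 3.11 against 3.77 to 6.20 CPM. These were the 2 genes of the list without overlap that were higher in knockout cells, and 0 were lower. Over all genes tested, 5.18% were higher and 5.44% lower in this way. In the osteoblast list 9 of 15 genes were tested, with 0 calls by either tool (1 at an unadjusted p under 0.05 in edgeR) and a median of 0.09, or -0.39 without wild-type replicate 3. The genotypes did not overlap for 1 that was higher in knockout cells and 3 that were lower, beside the same shares of all genes. Its matrix genes Col1a1 (3111, 11994 and 3408 against 829, 2080 and 2318 CPM) and Sparc (2160 to 6060 against 1379 to 2105 CPM) were 2 of the 3 lower in every knockout library. The phosphatase gene Alpl, the 1 that was higher, stood at 0.166 to 1.27 against 1.69 to 2.68 CPM.

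Across the lists of other family members, 0 of 7 tested loci of TNF ligands and 0 of 19 tested TNF receptors were called by either tool. At an unadjusted p under 0.05 in edgeR there were 0 and 0, against 3.87% of all genes. The medians were -0.46 and 0.16. These lists leave out Tnfrsf10b, which was read with the binding partners above. Its log2 fold change was 0.93, without overlap and at an unadjusted p under 0.05 in edgeR. The median of the ligands turned to 0.23 without wild-type replicate 3. In these lists the groups did not overlap, besides Tnfsf9, for the ectodysplasin gene Eda (5.95 to 7.43 CPM in wild-type and 4.24 to 5.71 CPM in knockout libraries) and for Tnfrsf9, which encodes the receptor 4-1BB (15.0, 0.234 and 15.7 against 40.4, 26.9 and 20.7 CPM). Over all genes tested, 10.6% did not overlap. In the macrophage list DESeq2 called 4 of 15 genes lower, C1qa, C1qc, Mrc1 and Cx3cr1, where it called 0.173% of all genes lower. With edgeR 0 of the 14 tested were called, and 4 were at an unadjusted p under 0.05, against 3.87% of all genes. The genotypes overlapped for each of those 14. The macrophage list's median of -2.75 became 0.03 when only wild-type replicate 3 was dropped. It was 2.12 when the 3 libraries richest in these markers were dropped. That choice kept wild-type replicate 1, with a marker sum of 26.9 CPM. The knockout libraries kept were replicate 2, at 98.96 CPM, and replicate 3, at 140 CPM. A positive median was thus largely built into the choice, and nothing is read from its sign. The T and B cell, fibroblast, endothelial and epithelial lists had 0 calls by either tool, with 4, 12, 5 and 1 genes tested, medians of -0.11, -0.70, -1.53 and -0.12, and 0, 2, 1 and 0 genes at an unadjusted p under 0.05 in edgeR.

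Tnfsf11 lies 9.24 Mb from Stc1 on the same chromosome. Of its 7 tested neighbours within 1 Mb, 2 had positive and 5 negative log2 fold changes, from -1.70 (Epsti1) to 0.19 (Vwa8), and edgeR and DESeq2 each called 0. The nearest tested loci were Epsti1, at a gap of 275 kb on one side (0.665, 2.90 and 16.2 CPM in wild-type and 3.85, 1.61 and 0.666 CPM in knockout replicates 1 to 3), and Akap11, at 184 kb on the other (106 to 128 against 124 to 134 CPM). The nearer AC126690.1 and 5S_rRNA loci had 0 fragments in every library. Tnfrsf11a had 10 tested neighbours, from -0.71 (Phlpp1) to 0.84 (Rnf152), the nearest being 2310035C23Rik at 25.5 kb with a log2 fold change of -0.03 and a minus-strand locus named Zcchc2 at 131 kb with 0.21. Tnfrsf11b had 8, from -0.81 (Dscc1) to 1.38 (Samd12, its nearest on one side at 348 kb), with Colec10 nearest on the other side at 132 kb and -0.64. The 2 tools called 0 of these either. Over all genes tested 44.4% were positive, edgeR called 0% and DESeq2 0.33%, so 0 calls here is no result about the neighbours. Near Tnfsf11, Tnfrsf11a and Tnfrsf11b, 0, 1 and 0 neighbours were higher and 1, 1 and 1 lower in every knockout library. Over all genes tested, 5.18% were higher and 5.44% lower in this way.

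**Figure D5:**
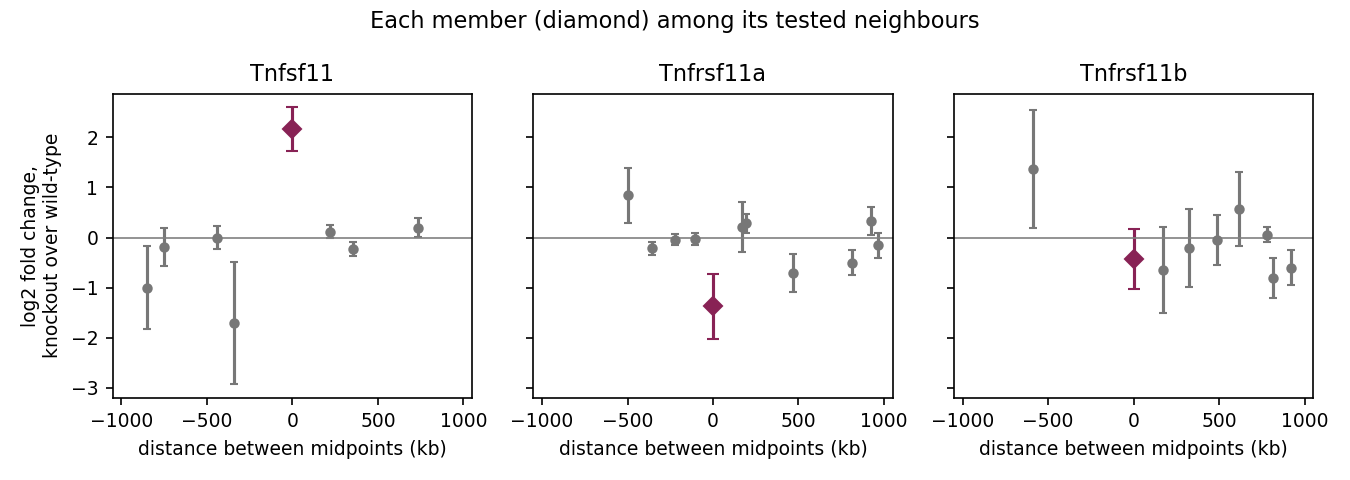
Knockout against wild-type log2 fold change, with 1 standard error, for each member (diamond) and its tested neighbours within 1 Mb, by distance between midpoints in kb. Tnfsf11, selected on this contrast, stands at 2.16, and its 7 neighbours lie between -1.70 and 0.19.

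The genes whose pattern over the 6 libraries was most like that of each member were ranked by Pearson's r of log2 CPM among the 11423 genes whose mean log2 CPM reached 2. For Tnfsf11 they were Il13ra1 (r = 0.970), the locus shared by Vmp1 and Mir21 (0.967), Sertad2 (0.962), Gm6467 (0.960) and Nfil3 (0.935). These moved far less than Tnfsf11: Il13ra1, an interleukin-13 receptor subunit on the X chromosome, stood at 48.4, 53.3 and 55.8 CPM in wild-type and 72.0, 64.6 and 65.7 CPM in knockout replicates 1 to 3. For Tnfrsf11b they were Ror2 (0.998), Nfix (0.992), Tpm1 (0.991), Lrig3 (0.990) and Rnf26 (0.989). Ror2, a receptor for Wnt5a, stood at 37.6, 54.1 and 21.3 CPM in wild-type and 22.0, 33.4 and 41.4 CPM in knockout replicates 1 to 3, in the same order of libraries as the decoy. Between members r was -0.18 for ligand and decoy, -0.35 for ligand and receptor and -0.47 for decoy and receptor. These values come from 6 libraries that share 2 genotypes and are descriptions.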

How the data were processed

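RNA had been sequenced from 3 wild-type and 3 knockout libraries with a strand-specific messenger RNA kit, per the labels' protocols. CASAVA 1.8.2, TopHat2 2.0.6, Cuffdiff 2.0.1 and the build mm10 are named, without their roles, in the submitters' processing notes. The authors deposited estimated counts of fragments and FPKM for each locus and library, and 23.97% to 24.6% of the counts above 0 in a library are not whole, per the file headers and values. The authors' deposited table of genotype means also gives a log2 fold change. Loci with no gene name (0.507% to 0.555% of fragments) and 16 loci flagged in the files as too deep to estimate were left out, which kept 36812.

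Estimated counts were rounded and tested with edgeR 4.0.16 (R 4.3.3; filterByExpr, TMM scaling, robust quasi-likelihood fit), with Benjamini-Hochberg adjustment over the 15673 genes tested and a threshold of 0.05. CPM was taken from the same counts and scaling. Alternatives were DESeq2 1.42.0, limma 3.58.1 (voom, and log2 of FPKM plus 1 or 0.1), other scalings and filters, and leaving out each library. Replicates were numbered in the order of deposit. The members and the 14 gene lists (226 genes, 225 found, 2 of them by an older symbol) were chosen with earlier results of these data known. Genes named are the members, the up to 4 genes of each list with the smallest p, those called by either tool, a set of core pathway genes, the nearest loci, and the 5 genes most like the ligand or decoy; some of these are covered by their list's counts and not printed singly. Axin2, Cyp24a1, Dcstamp, Ocstamp, Tnfrsf9, Tnfrsf1a, Tnfrsf12a, Tnfrsf4, Cd3d, Relb, Nfkbia, Tnfaip3, Sqstm1, Osm, Il6st, Il6ra, Lifr, Osmr, Il11ra1, Pth1r, Atp6v0d2, Itgb3, Vwa8, Phlpp1, Rnf152 and Dscc1 were added after their values were seen. Counts are of fragments, not molecules.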

Additional observations from a re-analysis of the deposited data

How the results depend on the processing

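The log2 fold change of Tnfsf11 stayed positive, between 1.84 and 3.08, under every alternative run, and was 3.08 without the 3 libraries with the most macrophage markers, a choice made after seeing the data. Tnfsf11 was selected on this contrast and its groups do not overlap, so leaving out libraries could not turn its sign. The log2 fold change of Tnfrsf11a was -0.092 without those 3 libraries and ran from -1.75 to -0.30 when each library was left out in turn. That of Tnfrsf11b ran from -0.82 to 0.22 when each library was left out, and so changed sign. The difference in the log2 ratio of ligand to decoy ran from 2.05 to 3.28. Over all genes, edgeR called 0 under each scaling, filter and left-out library (270 to 2939 genes at an unadjusted p under 0.05), DESeq2 called 61 and limma on log2(FPKM + 0.1) called 1. The macrophage list had 4 calls with DESeq2. Of 224 list medians under alternatives, 12 were marked as moved, but the rule was lenient and an unmarked median was not always stable. Without wild-type replicate 3 the macrophage median went from -2.75 to 0.03 and the osteoclast median from 0.06 to 0.57, both unmarked. The cause of these differences was not tested. No paired analysis was possible because the labels carry no replicate numbers that pair libraries across genotypes.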
